A study of Mus musculus with 12 samples.

Results

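The potassium channel genes described here are the genes whose symbol begins with Kcn followed by the letter of a subfamily, from Kcna to Kcnv. Of 23433 gene names with an H4K8ac peak in any of 6 peak lists, 82 met this rule, and 861 of the 269580 peaks were assigned to them. The rule uses names only and no measured value. RefSeq lists 98 such names in the mouse, 94 of them protein-coding and 4 non-coding, and 1 more (Kcnab3os) occurs only in the peak lists. No peak in any list was assigned to 17 of them, namely Kcne1l, Kcne2, Kcne3, Kcng1, Kcng4, Kcnj8, Kcnj14, Kcnj15, Kcnk9, Kcnk12, Kcnk16, Kcnk18, Kcnmb1, Kcnmb3, Kcnmb4os1, Kcnq1 and Kcnv2.

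H4K8ac is acetylation of lysine 8 on histone H4, a mark of active chromatin found at promoters and enhancers. It was mapped by chromatin immunoprecipitation and sequencing in oligodendrocyte progenitor cells (OPCs), the dividing glia from which myelin-forming oligodendrocytes arise. The cells came from the forebrain of mice of genotype PdgfrαH2BEGFP, in which a nuclear green fluorescent protein reports expression of Pdgfra, and both ages carried this reporter. Neonatal cells were sorted at postnatal day 5 and adult cells at postnatal day 60, with 3 H4K8ac libraries per age labelled as biological replicates. The labels give no treatment, and 6 input libraries are not analysed here. A sort on this reporter gathers the cells in which Pdgfra is active, so it is not by itself a pure population of progenitors.

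Potassium channels let potassium cross the cell membrane and thereby set the resting membrane potential, end action potentials and clear potassium from the space around axons. Voltage-gated subunits (Kcna to Kcnd, Kcnf to Kcnh, Kcnq, Kcns and Kcnv) belong to channels that open on depolarisation, some only together with other subunits. Inward rectifiers (Kcnj) and tandem-pore channels (Kcnk) carry resting currents, and Kcnma, Kcnn and Kcnt channels respond to intracellular ions. Progenitors of the oligodendrocyte lineage are known for large delayed-rectifier and A-type currents, while mature oligodendrocytes and astrocytes are dominated by inward rectification through the product of Kcnj10.

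The lists differ greatly in length, which bears on every count below. Values for the libraries of an age are given in the order of replicates 1, 2 and 3. The neonatal lists held 9097, 31189 and 7353 peaks and the adult lists 72278, 72661 and 77002, so neonatal replicate 2 stood apart from the other neonatal lists. For 35 members that library was the only neonatal one with a peak, and counts are therefore also given without it. Each list was called on its own library at a q-value limit of about 0.05, and read depth is not given in the sources used here. Peaks at 10, 10 and 9 of the promoters of 10 OPC marker genes were present in the neonatal libraries, and at 9, 9 and 8 in the adult ones. Bases under peaks of these OPC genes summed to 11.7, 39.7 and 5.99 kb in neonatal and 68.2, 73.9 and 91.7 kb in adult libraries. Of the 10 genes, 5 were higher in every adult library and 0 in every neonatal one. Promoters of 8 genes of myelinating oligodendrocytes had a peak at 2, 3 and 1 genes in neonatal and at all 8 in every adult library. Bases under peaks of that myelin list summed to 2.19, 8.46 and 0.435 kb in neonatal and 112, 109 and 138 kb in adult libraries. Bases on 8 astrocyte markers summed to 1.39, 9.03 and 0.45 kb against 15, 14.8 and 25.1 kb, and 2 of the 8 were higher in every adult library. Those on 8 neuronal markers summed to 0, 2.12 and 0.192 kb against 3.87, 3.51 and 5.97 kb, with 2 higher in every adult library and 3 (Snap25, Slc17a6 and Stmn2) without a peak in any list. Markers of endothelial cells had 0, 1.87 and 0 kb against 4.35, 5.36 and 6.22 kb, and those of fibroblasts and mural cells 0, 1.18 and 0 kb against 1.33, 1.41 and 1.7 kb. Of 8 microglial markers 7 had no peak in any list, and the other, Cx3cr1, brought 4.1, 3.73 and 4.05 kb in adult libraries only. The neonatal and adult sums of the OPC, myelin, astrocyte, neuronal, endothelial, microglial and mural lists did not overlap. The part of other cell types in the results on potassium channels was not tested. In bulk chromatin, more marked cells and more mark per cell cannot be told apart.

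Promoter sequences of 6 members show the range of starting points, chosen because the results below turn on them: a peak lay over the Kcnc1 window in 1 neonatal and no adult library, over those of Kcnk2 and Kcnd2 in all 6 libraries, over that of Kcna2 in 2 neonatal and 3 adult libraries, and over those of Kcnj10 and Kcnk13 in the 3 adult libraries alone. Each run is a RefSeq promoter window of the build GRCm38.p6, 250 bases before to 50 after a transcription start. It reads 5′ to 3′ on the strand of the gene, with every CG dinucleotide in capitals. For Kcnd2 and Kcnj10 that start is the 5′ end of the gene. For the others it lies inside the gene, whose 5′ end is at 107090883 (Kcna2), 189402782 (Kcnk2), 99963149 (Kcnk13) and 46396219 (Kcnc1). Those windows therefore do not describe the 5′ end of the gene. The windows are chr7:46396218-46396517 (Kcnc1, plus strand), chr1:189343304-189343603 (Kcnk2, minus strand), chr6:21215096-21215395 (Kcnd2, plus strand), chr3:107101317-107101616 (Kcna2, plus strand), chr1:172340960-172341259 (Kcnj10, plus strand) and chr12:99964249-99964548 (Kcnk13, plus strand).
Kcnc1: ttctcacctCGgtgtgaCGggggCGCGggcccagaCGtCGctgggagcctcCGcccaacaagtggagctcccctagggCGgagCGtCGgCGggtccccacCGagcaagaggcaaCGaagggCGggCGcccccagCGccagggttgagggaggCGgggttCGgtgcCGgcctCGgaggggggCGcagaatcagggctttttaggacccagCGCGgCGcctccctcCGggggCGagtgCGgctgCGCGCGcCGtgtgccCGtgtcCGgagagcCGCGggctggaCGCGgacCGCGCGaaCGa
Kcnk2: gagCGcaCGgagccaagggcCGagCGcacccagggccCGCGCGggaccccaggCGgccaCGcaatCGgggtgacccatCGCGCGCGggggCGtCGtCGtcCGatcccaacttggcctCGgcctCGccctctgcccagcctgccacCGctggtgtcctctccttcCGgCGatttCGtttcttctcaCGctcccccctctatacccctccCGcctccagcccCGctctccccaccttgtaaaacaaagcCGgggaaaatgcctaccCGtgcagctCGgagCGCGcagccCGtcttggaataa
Kcnd2: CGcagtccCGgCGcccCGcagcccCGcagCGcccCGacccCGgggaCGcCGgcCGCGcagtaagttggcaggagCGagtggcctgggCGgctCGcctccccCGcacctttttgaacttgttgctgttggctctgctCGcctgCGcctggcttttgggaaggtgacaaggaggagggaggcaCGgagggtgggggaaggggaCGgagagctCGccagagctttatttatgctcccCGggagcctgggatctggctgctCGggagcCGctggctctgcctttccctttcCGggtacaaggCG
Kcna2: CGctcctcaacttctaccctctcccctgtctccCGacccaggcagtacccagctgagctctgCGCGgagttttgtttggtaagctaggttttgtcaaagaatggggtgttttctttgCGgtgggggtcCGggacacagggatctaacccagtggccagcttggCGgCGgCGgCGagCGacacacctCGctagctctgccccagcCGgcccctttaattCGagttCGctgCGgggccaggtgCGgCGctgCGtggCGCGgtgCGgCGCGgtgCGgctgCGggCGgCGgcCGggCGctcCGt
Kcnj10: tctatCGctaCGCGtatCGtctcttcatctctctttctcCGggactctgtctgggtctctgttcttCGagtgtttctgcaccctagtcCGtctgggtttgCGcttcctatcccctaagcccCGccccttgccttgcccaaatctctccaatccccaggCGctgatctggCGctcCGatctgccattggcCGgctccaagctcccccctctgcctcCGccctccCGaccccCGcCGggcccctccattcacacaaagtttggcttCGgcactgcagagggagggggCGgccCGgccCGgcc
Kcnk13: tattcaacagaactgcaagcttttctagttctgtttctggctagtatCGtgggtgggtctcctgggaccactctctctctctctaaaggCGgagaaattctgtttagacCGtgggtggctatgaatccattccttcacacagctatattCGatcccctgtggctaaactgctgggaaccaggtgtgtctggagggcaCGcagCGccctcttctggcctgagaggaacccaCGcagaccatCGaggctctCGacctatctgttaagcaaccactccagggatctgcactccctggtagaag

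The Kcnc1 window held 41 CG dinucleotides, against 33 for Kcnk2, 31 for Kcna2, 26 for Kcnd2, 21 for Kcnj10 and 9 for Kcnk13. A RefSeq window was found for 72 of the names that meet the rule (97 windows), and their median of 9 CG dinucleotides compares with 7 over 32851 windows of all genes. Among Kcn windows the 5 under a peak in all 6 libraries had a median of 33 (34 over 1751 windows of all genes). The 9 Kcn windows under a peak in every adult and no neonatal library had a median of 17 (16 over 2469), and the 45 with no peak had 6 (3 over 18570). Windows under a peak everywhere were thus rich in CG dinucleotides in members as in genes at large. These are counts of letters in fixed windows and say nothing of any factor that binds there.

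Peaks on potassium channel genes numbered 34, 131 and 23 in the neonatal libraries and 233, 195 and 245 in the adult ones. They covered 11.8, 60.9 and 6.70 kb in neonatal and 140, 133.5 and 186.4 kb in adult libraries, on 28, 66 and 20 genes against 66, 54 and 60. The number of peaks and of bases did not overlap between ages, whereas the number of genes did, because neonatal replicate 2 reached as many genes as adult replicate 1. Relative to the length of the list, Kcn peaks made up 0.374, 0.420 and 0.313% of neonatal and 0.322, 0.268 and 0.318% of adult peaks, which overlap. A promoter peak means a peak the authors annotated within 3 kb of a transcription start site. Members with one numbered 24, 58 and 18 in neonatal and 62, 49 and 51 in adult libraries (means 33.3 ± 21.6 and 54 ± 7, SD, n = 3 per age). Over all genes the counts were 6383, 13700 and 5629 against 15511, 15117 and 15488. The ratio of adult to neonatal means was 1.62 for members and 1.79 for all genes.

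The position of the peaks differed between ages. Promoter peaks were 75.9 ± 6.97% of neonatal and 46.7 ± 2.89% of adult Kcn peaks (SD, n = 3 per age), against 80.5 ± 11.4% and 42.5 ± 1.80% for all peaks. Intronic peaks were 12.4 ± 6.24% of neonatal and 22.5 ± 4.50% of adult Kcn peaks, while over all genes the intronic share was 8.94 ± 5.78% and 34.5 ± 1.43%. The ages overlapped for Kcn genes, with 18.32% in neonatal replicate 2 and 17.95% in adult replicate 2, and among equal numbers of strongest peaks the difference turned to -0.813 percentage points. The adult intronic share of potassium channel genes lay below that of all genes in every adult library, although the median length of the 81 members placed in RefSeq was 37 kb against 17.2 kb over 18991 genes with a peak. Distal intergenic peaks were 10.9 ± 6.65% and 25.5 ± 2.90% of Kcn peaks, against 8.77 ± 4.83% and 18.4 ± 0.252% of all peaks. The distal peaks were mostly on a single subfamily, Kcna, which held 120 of the 170 adult distal peaks (70.6%). Without Kcna the distal share was 6.19 ± 1.26% in neonatal and 10.3 ± 1.87% in adult libraries, a comparison added after the data were seen. Of 183 intronic peaks, 173 lay inside a transcript of the member itself.

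**Figure D1:**
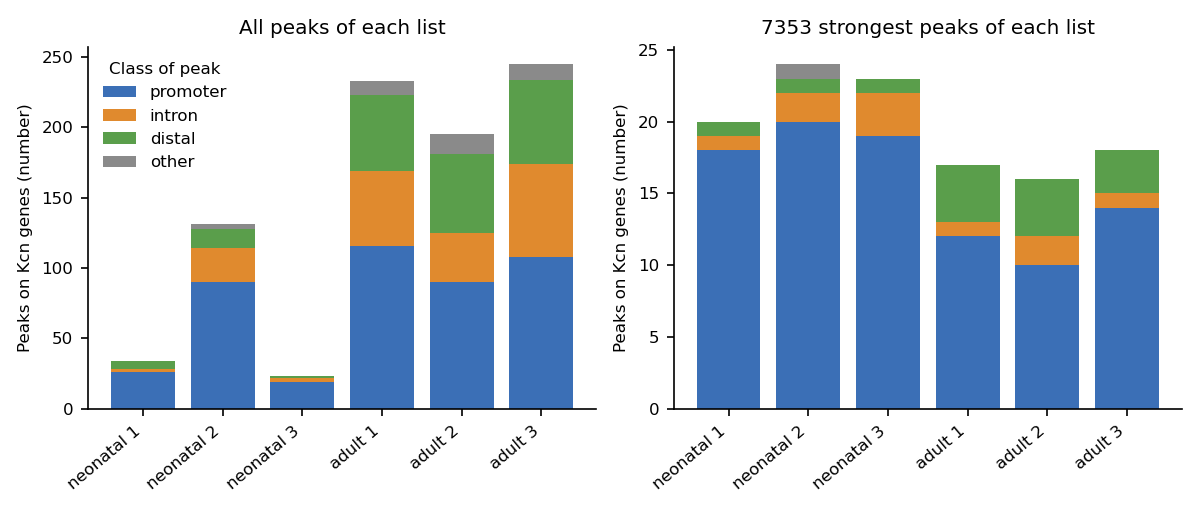
Number of peaks assigned to Kcn genes in each library (vertical axis), split by class of position, in all peaks (left) and in the 7353 strongest peaks of each list by p-value (right). All adult bars are higher than all neonatal bars on the left (195 to 245 against 23 to 131), and lower on the right (16 to 18 against 20 to 24).

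Gene by gene, every adult library had more bases under peaks than every neonatal library at 30 of the 82 members (36.6%). The same held for 60.0% of all 23433 genes with a peak, so the share among potassium channel genes was below the background. At 51 members the ages overlapped. A single member, Kcnc1, had more bases in every neonatal than in every adult library (0.303% of all genes did). Each of these 31 genes had p = 0.1 in the exact two-sided permutation test on log2(bases + 100), the smallest p that 3 against 3 libraries allow, and an adjusted p of 0.166 over all 23433 genes, so none passed 0.05. Without neonatal replicate 2 the count of members higher in the adult was 43 (52.4%), against 70.6% of all genes. The order of these shares was the same with and without that library.

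Restricting each list to its 7353 strongest peaks by p-value, the length of the shortest list, gave another balance at potassium channel genes. In these equal lists Kcn peaks numbered 20, 24 and 23 in neonatal and 17, 16 and 18 in adult libraries, and the genes they touched 19, 21 and 20 against 10, 9 and 12. Of 33 members with a peak in the equal lists, 9 (27.3%) had more bases in every neonatal library, against 4.64% of 10859 genes, and 6 (18.2%) in every adult library, against 34.4%. Among the 9 were Kcnc1, Kcnd2, Kcnd3, Kcnh2, Kcnip1, Kcnk2, Kcnk10 and Kcnma1. All 9 had a promoter peak among the strongest in each neonatal list and no base in any adult one. In the full adult lists 7 of the 9 did carry a promoter peak in every library (all but Kcnc1 and Kcnk2), so the absence from the strongest adult peaks is no absence of the mark. The equal lists keep every peak of the shortest neonatal list and a small share of each adult list, and ranks from lists of such different lengths show no change in level. The 6 higher in the adult were Kcna1, Kcna2, Kcna6, Kcnj10, Kcnk13 and Kcnq3, all with a promoter peak among the strongest in every adult list. Ranked by fold enrichment in place of the p-value, a choice added after the data were seen, 7 of 33 members (21.2%, against 4.15% of genes) were higher in every neonatal and 4 (12.1%, against 27.3%) in every adult library.

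**Figure D2:**
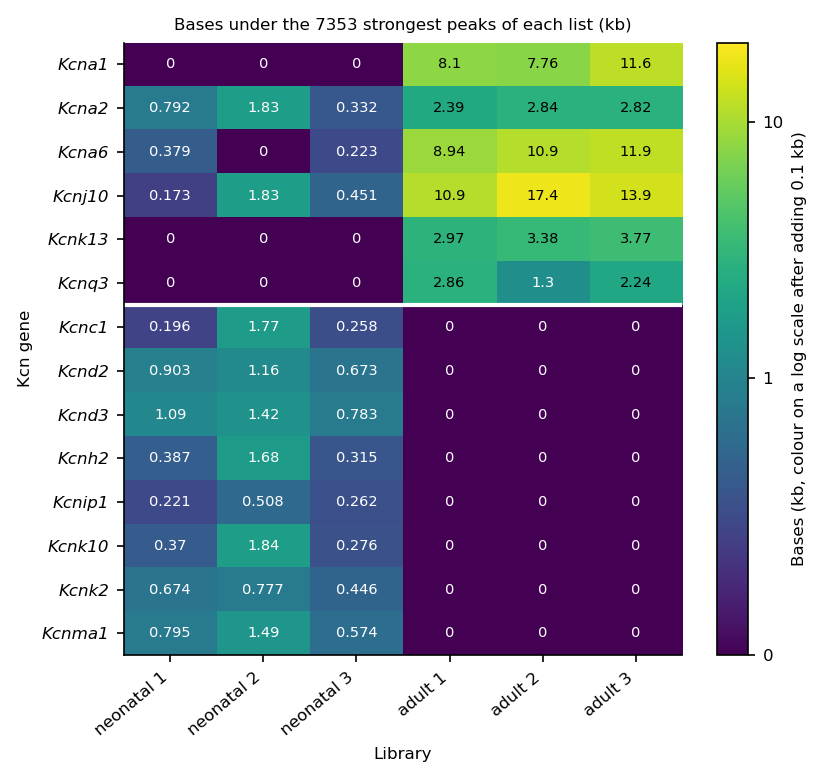
Bases (kb, printed in each cell and coloured on a log scale) under the 7353 strongest peaks of each list, for 14 Kcn genes (rows) whose ages did not overlap, in the 6 libraries (columns). The upper 6 genes were higher in every adult library and the lower 8 in every neonatal library, where the adult cells all read 0.

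Promoter peaks present in every adult and no neonatal library were found at 7 of the 74 members with any promoter peak (9.46%, against 12.1% of 18548 genes), namely Kcna10, Kcnk7, Kcnk13, Kcnq1ot1, Kcnrg, Kcns1 and Kcnu1. Without neonatal replicate 2 this count was 22 (29.7%, against 36.3% of all genes). The reverse pattern, all neonatal and no adult libraries, occurred at Kcnc1 alone (1.35% of members, against 0.264% of genes). A promoter peak in all 6 libraries was present at 12 members. After merging the 6 lists into 98027 regions, 31 of 180 Kcn regions outside promoters (17.2%) had a peak in all adult and no neonatal libraries, against 22.8% of all such regions. The corresponding shares of promoter regions were 17 of 157 (10.8%) and 16.6%. With all libraries, each of these adult-only shares of potassium channel genes was somewhat below that of all genes. The differences were not tested, and several regions can lie on the same gene.

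The authors' deposited table lists 43888 sites, mostly 400 bp wide, that differ between ages at an adjusted p of at most 0.05, with a log2 fold change and no values per library. Its positive values are read as higher in adult cells, because 85 to 96.7% of positive sites overlapped a peak of each adult list and 10.3 to 27.8% a peak of each neonatal list. Of those in the authors' deposited table, 113 lay in peaks of 36 members, with 110 of positive and 3 of negative sign. At least 1 site higher in adult was present at 34 of 82 members (41.5%), against 65.0% of all genes, in the authors' deposited table. At least 1 site higher in neonatal was present at 3 members (3.66%), against 0.977% of all genes, in the same authors' deposited table. The median log2 value of Kcn sites higher in adult was 2.30, against 2.42 over all such sites of the authors' deposited table. By position the medians of all listed Kcn sites in the authors' deposited table were 1.95 at promoters (all genes 1.86), 2.08 in introns (2.87) and 2.64 at distal sites (2.78). The listed intronic Kcn sites, 22 in number, thus had smaller values than intronic sites at large. Among the 110 sites, 87 had no peak in any neonatal list and 5 had a peak in all 6 lists. The number of sites tested is not listed in the authors' deposited table and was inferred as 54838. With 43634 of them listed as higher in adult in the authors' deposited table, the lowest possible median of all tested sites was 2.04. All these values share that shift. At the site of smallest p the median over the 36 members was 2.36, against 2.12 over all genes with a site in the authors' deposited table. The order was opposite for each gene's median site in the authors' deposited table, with 1.87 over members and 1.98 over genes.

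**Figure D3:**
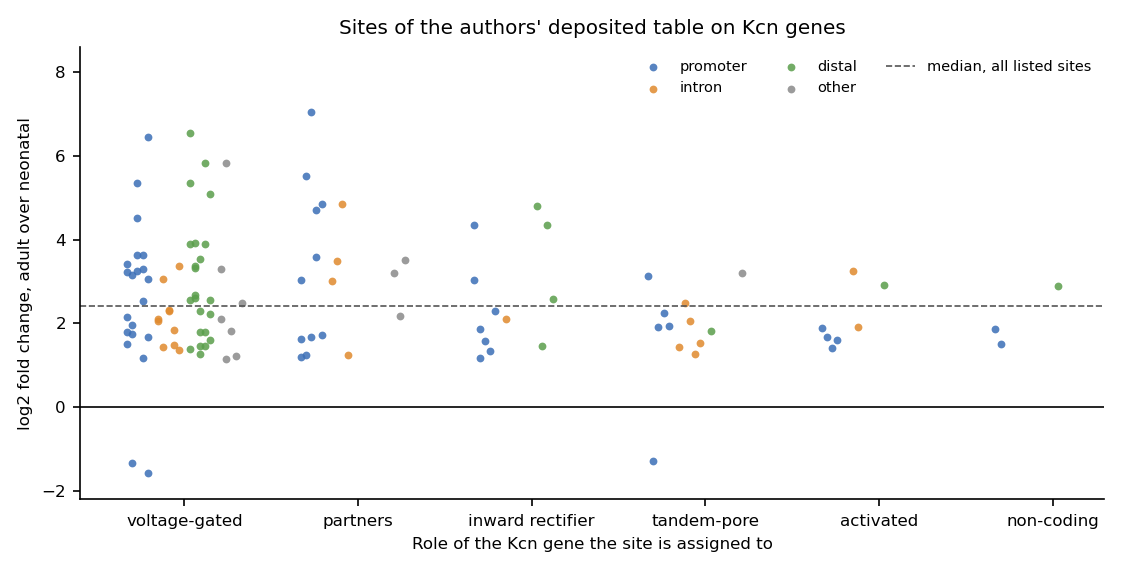
Log2 fold change, adult over neonatal (vertical axis), of each of the 113 sites of the authors' deposited table assigned to a Kcn gene, by role of the gene (horizontal axis; activated stands for Kcnma, Kcnmb, Kcnn, Kcnt and Kcnu) and coloured by class of position. The dashed line is the median of all listed sites (2.41), and the 3 points below 0 belong to Kcnc1, Kcnf1 and Kcnk2.

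Voltage-gated subunits made up 36 of the members with a peak. Of these, 13 were higher in every adult library (60.0% of all genes were) and 1 in every neonatal library (0.303% of all genes). Within this role the Kcna subfamily, which includes low-threshold delayed rectifiers of axons and glia, carried most of the adult signal. Its promoter peaks numbered 2, 5 and 2 in neonatal and 17, 16 and 19 in adult libraries, and its distal peaks 4, 6 and 0 against 40, 41 and 39. Introns held almost none (0 in every neonatal and 2, 0 and 3 in the adult libraries). Kcna genes took up 33.2, 38.6 and 36.1% of the bases on all members in the adult libraries, and 17.3, 11.0 and 8.28% in the neonatal ones. Of the 110 Kcn sites higher in adult in the authors' deposited table, 41 (37.3%) were on 5 of the 8 Kcna genes.

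Kcna1 (chromosome 6, 126636463 to 126645801, minus strand) is a subunit found in the juxtaparanodal regions of myelinated axons. It had 0, 0.397 and 0 kb under peaks in the neonatal libraries and 21.5, 22.8 and 30.7 kb in the adult ones. Neonatal cells thus showed a single small peak in replicate 2, and the adult libraries were the highest of all members. The 22 distal peaks in each adult library formed clusters that reached from -36.6, -37.0 and -35.3 kb (upstream of its 5′ end) to 36.8, 39.7 and 39.7 kb (downstream). On the gene itself, with 5 kb on either side, peaks covered 6.49, 5.09 and 7.5 kb in the adult libraries, so most bases assigned to Kcna1 lay outside it. The authors' deposited table holds 18 sites of Kcna1, all higher in adult, with log2 values from 1.79 to 6.55 and the largest at a distal site at 126657356 to 126657755 (adjusted p = 2.77e-08). For the site over its promoter, at 126644749 to 126645148, the authors' deposited table gives log2 3.41 with an adjusted p of 1.33e-09.

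Kcna6 lies 62.5 kb upstream of Kcna1 and Kcna5 110 kb downstream, and the 3 genes have different patterns. Kcna6 had 0.947, 2.31 and 0.223 kb in neonatal and 13.5, 13.8 and 16.6 kb in adult libraries. Its site of smallest p in the authors' deposited table was distal, with log2 5.34 (adjusted p = 7.95e-10). Kcna5 had a single peak of 0.154 kb, in adult replicate 3. Counting every peak between the outer ends of the 3 genes with 5 kb on either side (218 kb), whichever gene the lists name, adult libraries had 46.2, 54.7 and 75.8 kb under peaks (21.2, 25.1 and 34.7% of the interval). The neonatal libraries had 0, 1.78 and 0.223 kb there. Adult peaks lay, with gaps, between Kcna6 and Kcna1 and downstream of Kcna1, and a share of them is assigned to non-coding neighbours. From 91.7 kb downstream of the Kcna1 5′ end to Kcna5, no adult library had a peak. Nearest-gene assignment does not tell which gene, if any, a distal peak acts on.

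The second Kcna cluster, on chromosome 3, holds Kcna2, Kcna3 and Kcna10. Kcna2, which assembles with Kcna1 in axons, had 0.792, 2.25 and 0.332 kb in neonatal and 5.68, 9.14 and 11.5 kb in adult libraries. Its promoter was marked in all 6 libraries, and its neonatal and adult values did not overlap. The authors' deposited table gives log2 1.5 for the site over the Kcna2 promoter, at 107101391 to 107101790, and 3.63 for one further into the gene, at 107105622 to 107106021 (adjusted p = 1.49e-05). Kcna3, a channel known from dividing progenitors and lymphocytes, had 0.294, 1.16 and 0 kb against 1.57, 2.04 and 1.94 kb. Its site value of 1.16 in the authors' deposited table is the smallest positive one among members at their site of smallest p. Kcna10 had 0, 0.620 and 0 kb against 3.61, 3.68 and 6.27 kb, with a promoter-class site of log2 6.44 in the authors' deposited table (adjusted p = 7.84e-08). Kcna4 had a single peak of 0.271 kb in adult replicate 1 and Kcna7 one of 0.4 kb in the same library.

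**Figure D4:**
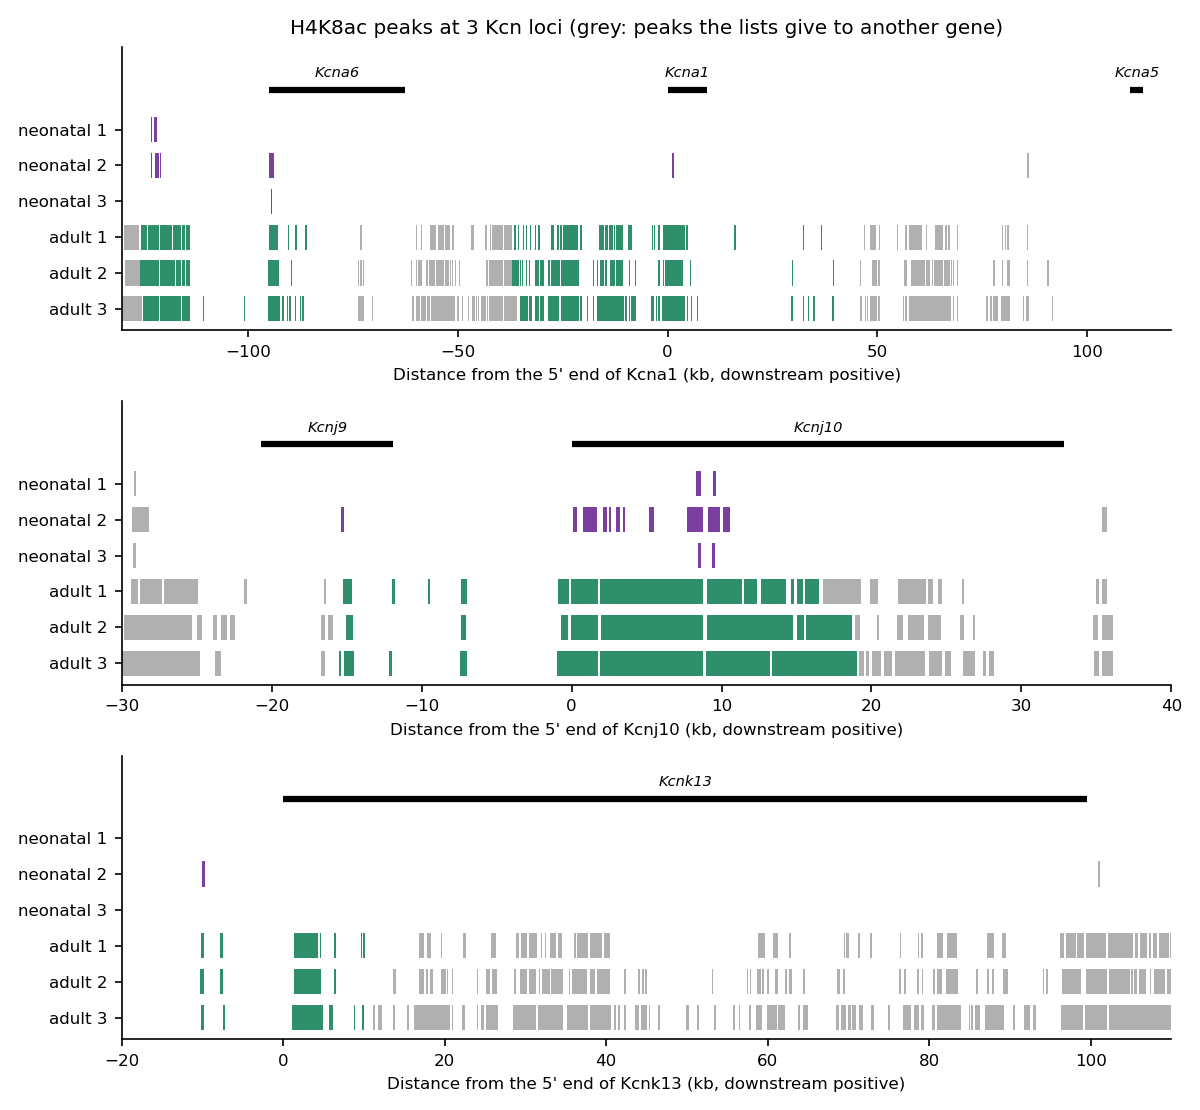
H4K8ac peaks (horizontal bars, drawn to scale) in the 6 libraries (rows) by distance in kb from the 5′ end of Kcna1, Kcnj10 and Kcnk13, with Kcn genes as black bars. Purple (neonatal) and green (adult) peaks are assigned to a Kcn gene and grey ones to another gene. Peaks assigned to Kcnj10 end 16.5, 18.7 and 19.0 kb into the gene in adult replicates 1, 2 and 3, and those of neonatal replicates 1 and 3 lie between 8 and 10 kb.

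Kcnq genes, whose products carry the M current that holds neurons near rest, differed in breadth. Kcnq3 had 0.555, 1.17 and 0 kb in neonatal and 6.22, 3.50 and 7.37 kb in adult libraries, with an adult promoter peak of up to 24.2-fold enrichment, the authors' value. Its main promoter site had log2 3.06 in the authors' deposited table, with an adjusted p of 1.78e-10. A site at an internal start, at 66103050 to 66103449 on chromosome 15, had log2 5.36 there by the authors' deposited table (adjusted p = 1.44e-05). Kcnq5 had 0, 0.638 and 0 kb against 1.10, 0.331 and 1.07 kb, which overlap. Introns of the subfamily held 0, 3 and 0 neonatal and 9, 5 and 11 adult peaks, and promoters 3, 7 and 1 against 7, 6 and 11. Kcnq1 had no peak of its own, while the non-coding Kcnq1ot1 within it had 0 in the neonatal libraries and 0.852, 0.258 and 1.67 kb in the adult ones.

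Kcnd and Kcnc genes differed little between ages or were higher in neonatal cells, with Kcnd2 as an exception among those described here. Kcnd2 and Kcnd3 encode the A-type channels of neurons and progenitors. Kcnd2 had 0.903, 1.16 and 0.673 kb in neonatal and 1.80, 1.63 and 1.83 kb in adult libraries, and Kcnd3 had 1.09, 1.73 and 0.783 kb against 1.10, 1.40 and 0.874 kb. The promoters of both were marked in all 6 libraries, Kcnd2 did not overlap between ages and Kcnd3 did. No site of a protein-coding Kcnd gene is in the authors' deposited table. The promoter peak of Kcnd3 also lies at the start of its neighbour Kcnd3os, and ChIP peaks carry no strand. Kcnd1 had a promoter peak in adult replicates 1 and 3 only.

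Kcnc1, which encodes a fast-deactivating delayed rectifier, had one promoter peak in each neonatal library, of 0.196, 1.77 and 0.258 kb. No adult library had a base under a peak anywhere on the gene or within 5 kb of it. For the site over its start, at 46396473 to 46396872 on chromosome 7, the authors' deposited table gives a log2 value of -1.57 (adjusted p = 0.0158). The neonatal peaks began at 46396570, 46396504 and 46396562, so that only the one of replicate 2 reached into the CG-rich window printed above. Kcnc2 and Kcnc4 had a peak in neonatal replicate 2 and adult replicate 1 only.

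Other voltage-gated members were marked at low breadth. Kcnf1, a modifier subunit that is silent on its own, had a promoter peak in neonatal replicates 2 and 3 and in no adult library, and a promoter site of log2 -1.33 in the authors' deposited table (adjusted p = 0.0369). Its distal peaks were present in all adult libraries, so its totals overlapped (0, 1.43 and 0.322 kb against 0.587, 0.705 and 0.840 kb). Kcnh2, of the ether-a-go-go family, had 0.387, 2.82 and 0.315 kb against 2.23, 0.858 and 1.81 kb and overlapped. Kcns1, another silent modifier, had 0 in the neonatal and 0.374, 0.159 and 0.447 kb in the adult libraries. Promoter peaks of the 8 Kcnh genes numbered 3, 8 and 1 in neonatal and 8, 9 and 6 in adult libraries, and their intronic peaks 0, 2 and 0 against 2, 2 and 3.

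**Figure D5:**
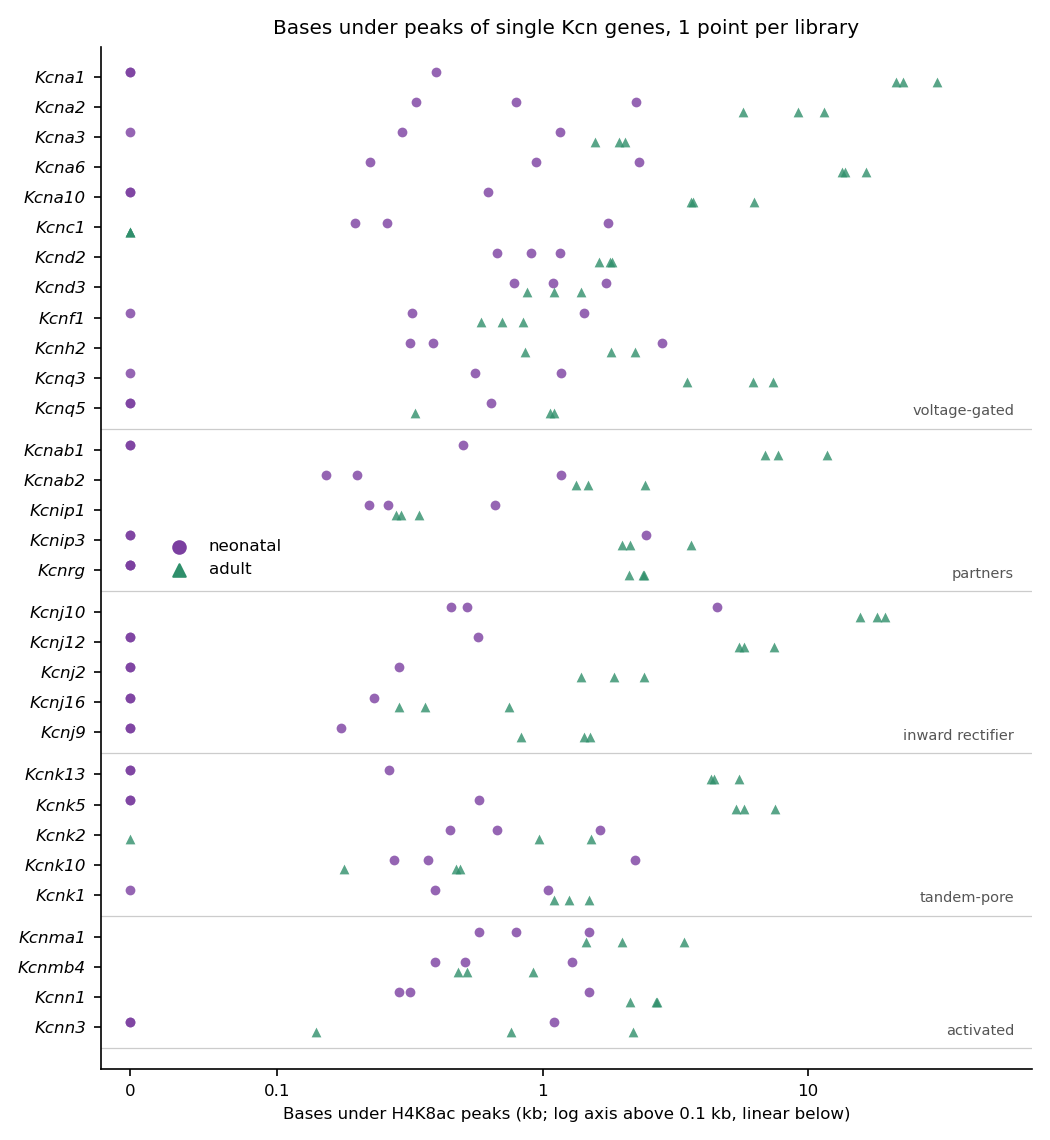
Bases under H4K8ac peaks (kb, horizontal axis, logarithmic above 0.1 kb and linear below) of 31 Kcn genes (rows, grouped by role), 1 point per library and without averaging. Adult triangles lie right of all neonatal circles for genes such as Kcna1 and Kcnj10, intermix for Kcnd3 and Kcnk2, and lie at 0 for Kcnc1.

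Among the partners of voltage-gated channels, 4 of 10 members with a peak were higher in every adult library, against 60.0% of all genes. Kcnab1, a cytoplasmic beta subunit that binds Kcna channels, had 0, 0.501 and 0 kb in neonatal and 7.73, 6.91 and 11.8 kb in adult libraries. The gene spans 429 kb on chromosome 3 (64949212 to 65378225). The RefSeq promoter window at the 5′ end of the gene, 64948962 to 64949261, had no peak in any library. A start inside the gene was marked in neonatal replicate 2 and in every adult library. Another start further downstream was marked in adult libraries only. At the further start a site at 65296419 to 65296818 had log2 7.05 (adjusted p = 3.67e-09), the largest value of any Kcn site in the authors' deposited table. By the same authors' deposited table the site at the start marked at both ages, at 65109266 to 65109665, had log2 1.62 with an adjusted p of 0.0109. Intronic peaks of the Kcnab subfamily numbered 0, 1 and 0 in neonatal and 10, 7 and 14 in adult libraries.

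Kcnab2, the other axonal beta subunit, had 0.200, 1.17 and 0.153 kb against 1.33, 1.48 and 2.43 kb, with promoter peaks in all 6 libraries shared with the neighbouring gene Nphp4. Kcnab3 overlapped between ages (0, 0.533 and 0 kb against 0.465, 0.599 and 0.547 kb), with a site of log2 1.25 in the authors' deposited table. Kcnip genes encode calcium-binding partners of the Kcnd channels, and all of their peaks were at promoters (2, 10 and 1 in neonatal, 4, 4 and 8 in adult libraries). Kcnip1 had 0.221, 0.664 and 0.262 kb against 0.280, 0.292 and 0.343 kb, and Kcnip3 0, 2.46 and 0 kb against 2.14, 2.00 and 3.61 kb. Kcnip2 had 0.489, 0.229 and 0 kb against 0.646, 0.303 and 0.642 kb, and Kcnip4 a single neonatal peak of 0.261 kb. None of the 4 separated by age under its own name. By position, however, 10.8, 11.1 and 14.5 kb of adult peaks and no neonatal peak lay over the Kcnip1 gene under the name of the non-coding Gm12120.

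Kcnrg, a cytoplasmic suppressor of channel assembly, had no neonatal peak and 2.41, 2.12 and 2.4 kb in the adult libraries. Its 3 promoter-class sites in the authors' deposited table had log2 3.04 to 4.85, and the one at 61604453 to 61604852 on chromosome 14 an adjusted p of 9.08e-11. Kcne1, which slows Kcnq channels, had no neonatal peak and 0.240, 0.836 and 1.07 kb in adult libraries. Kcne4 had a peak in adult replicates 2 and 3 only.

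Inward rectifiers had a peak at 12 members, 6 of them higher in every adult library (60.0% of all genes were) and none in every neonatal library. Kcnj10 (chromosome 1, 172341210 to 172374085) encodes the main potassium-buffering channel of glia. It had 0.517, 4.56 and 0.451 kb under peaks in the neonatal and 15.7, 18.3 and 19.5 kb in the adult libraries. The lowest adult value was far above the highest neonatal one, from replicate 2. In neonatal replicates 1 and 3 the only peaks were 2 short intronic ones, beginning 8.29 and 9.46 kb into the gene in replicate 1 and 8.43 and 9.35 kb in replicate 3. Neonatal replicate 2 had its strongest peaks at the same place (the authors' fold enrichments 7.6 and 9.37) and a weaker one at the start (2.70). In the adult libraries a peak of 6.86, 6.83 and 6.85 kb began 1907, 1938 and 1923 bp after the start and was followed by further intronic peaks. It was the widest peak on any member in each adult library. Over the gene and 5 kb on either side, 51.0, 52.7 and 62.6% of all bases lay under adult peaks, against 1.21, 11.4 and 1.05% for neonatal ones.

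By the authors' deposited table the Kcnj10 site next to its start, at 172341249 to 172341648, had log2 3.03 (adjusted p = 2.75e-09). All neonatal libraries had a peak at 172349577 to 172349976 and at 172350449 to 172350848, where the authors' deposited table gives 1.87 (adjusted p = 8.24e-05) and 2.11 (adjusted p = 1.93e-06). The value at the start was the largest of the 3, and the difference between sites was not tested.

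Kcnj9, the neighbour of Kcnj10 and a subunit of G-protein-gated channels, had 0, 0.173 and 0 kb against 1.43, 0.830 and 1.51 kb. Kcnj12, a strong rectifier, had 0, 0.568 and 0 kb against 5.76, 5.49 and 7.46 kb, and its site of smallest p in the authors' deposited table was distal, with log2 4.35 (adjusted p = 1.29e-10). Kcnj2, another strong rectifier, had 0, 0.287 and 0 kb against 1.85, 1.40 and 2.41 kb, with promoter sites of log2 2.30 and 4.34 in the authors' deposited table. Kcnj16, which pairs with Kcnj10 in glia, was weakly marked at 0, 0.232 and 0 kb against 0.287, 0.360 and 0.749 kb, with a site of log2 1.34 in the authors' deposited table. Kcnj1, a renal channel, had distal peaks in neonatal replicates 1 and 2 only. Across the Kcnj subfamily promoter peaks numbered 0, 12 and 1 in neonatal and 18, 12 and 15 in adult libraries, intronic ones 2, 7 and 2 against 8, 6 and 5, and distal ones 1, 3 and 0 against 5, 7 and 7.

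Tandem-pore channels, which carry background currents, had a peak at 10 members, 4 of them higher in every adult library, against 60.0% of all genes. Promoter peaks of Kcnk genes numbered 4, 10 and 2 in neonatal and 17, 10 and 10 in adult libraries. Their intronic peaks numbered 0, 3 and 0 against 13, 5 and 12, and distal ones 0, 1 and 0 against 3, 1 and 4. Kcnk13, a halothane-inhibited channel known from microglia, had 0, 0.264 and 0 kb against 4.33, 4.41 and 5.50 kb. For its promoter site at 99964872 to 99965271 on chromosome 12 the authors' deposited table gives log2 3.13, with an adjusted p of 7.58e-09. Of the microglial markers only Cx3cr1 had a peak, in adult libraries. Counted by position over the gene with 5 kb on either side, adult peaks covered 27.9, 32.6 and 52.7 kb and neonatal ones 0, 0.150 and 0 kb. Most of those peaks are listed under the non-coding names Gm23291 (11.9, 16.1 and 27.4 kb) and 9530050K03Rik (12.4, 12.9 and 20.4 kb).

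Kcnk5 had 0, 0.573 and 0 kb against 5.38, 5.74 and 7.54 kb, with 4 sites of log2 1.27 to 2.25 in the authors' deposited table. Kcnk1 had 0.394, 1.05 and 0 kb against 1.10, 1.26 and 1.49 kb, with a site of log2 1.44 in the authors' deposited table. Kcnk7 had no neonatal peak and 0.615, 0.238 and 0.614 kb in adult libraries.

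Kcnk2 and Kcnk10, mechanosensitive channels of one branch, did not separate by total bases. Kcnk2 had 0.674, 1.65 and 0.446 kb against 0.970, 0 and 1.52 kb, and Kcnk10 had 0.370, 2.22 and 0.276 kb against 0.472, 0.178 and 0.486 kb. Both had promoter peaks among the strongest in every neonatal and in no adult list. At the Kcnk2 promoter inside the gene the authors' fold enrichments were 8.24, 10.2 and 4.12 in the neonatal lists. Those of the adult peaks named Kcnk2 at the same promoter were 3.27 (replicate 1) and 4.11 (replicate 3). By the authors' deposited table the site at 189343474 to 189343873 on chromosome 1 had log2 -1.30, with an adjusted p of 0.0104. That site had a peak in all 6 lists, the one of adult replicate 2 being listed under the overlapping A430027H14Rik. A distal site of Kcnk2, at 189495580 to 189495979, had, by the authors' deposited table, a log2 value of 1.82 at an adjusted p of 0.0359, so the gene carries sites of opposite sign.

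The Kcnma, Kcnmb, Kcnn, Kcnt and Kcnu subfamilies, most of them gated by intracellular calcium or sodium, had a peak at 10 members. Of these, 2 (Kcnn1 and Kcnu1) were higher in every adult library, against 60.0% of all genes. Kcnma1, the large-conductance calcium-activated channel, had 0.795, 1.49 and 0.574 kb in neonatal and 2.00, 1.46 and 3.42 kb in adult libraries, which overlap. Its promoter carried exactly 1 peak in each of the 6 libraries, and intronic peaks were present only in the adult ones (3, 1 and 4). Both Kcnma1 sites of the authors' deposited table were intronic, with log2 3.25 (adjusted p = 1.27e-05) and 1.90 (adjusted p = 0.0142). Kcnmb4, the beta subunit of that channel in brain, had 0.391, 1.29 and 0.510 kb against 0.478, 0.923 and 0.519 kb, with no site in the authors' deposited table.

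Kcnn1, a small-conductance calcium-activated channel, had 0.316, 1.5 and 0.288 kb against 2.68, 2.71 and 2.13 kb, with sites of log2 1.67 and 1.89 in the authors' deposited table. Kcnn2 had 0.156, 1.53 and 0 kb against 1.41, 0.155 and 1.84 kb, and Kcnn3 had 0, 1.10 and 0 kb against 0.140, 0.758 and 2.19 kb. These 2 overlapped between ages, with a site of log2 1.42 at Kcnn2 and none at Kcnn3 in the authors' deposited table. Kcnu1, a pH-sensitive channel known from sperm, had no neonatal peak and 0.904, 1.22 and 1.43 kb in adult libraries. Promoter peaks of Kcnn genes numbered 2, 11 and 1 in neonatal and 11, 8 and 9 in adult libraries, and intronic ones 0, 5 and 1 against 0, 2 and 6.

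Adult bases were concentrated on a few members. The 5 members with the most adult bases carried 49.0% of all adult bases on potassium channel genes, and 19.2, 16.4 and 15% of those in the neonatal libraries. Per 100 kb of gene, the most adult peaks were at Kcna1 (296), Kcna3 (102), Kcnrg (74.4), Kcna10 (60.9) and Kcnk7 (56.9), and the Kcna1 value includes peaks far outside its short gene. A peak in all 6 libraries was present at 15 members, a peak only in adult libraries at 16 and only in neonatal libraries at 9. Of those 9, 7 were seen in neonatal replicate 2 alone.

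Genes that handle potassium beside the channels, a list of 36 that covers sodium-potassium pumps, cation-chloride cotransporters, Hcn channels and auxiliary subunits, were read in the same way. A peak was present at 29 of them, 12 were higher in every adult and none in every neonatal library, against the 60.0 and 0.303% of all genes given above. Of the 29 with a peak, 12 had at least 1 site higher in adult in the authors' deposited table (49 sites in all). The share over all genes with a peak was 65.0% in the authors' deposited table. Lrrc55 alone had a site of opposite sign there, with log2 -2.38, against 0.977% of all genes with a peak. Slc12a2, which imports sodium, potassium and chloride, had 0.928, 1.68 and 0.206 kb against 10.6, 10.7 and 16.3 kb.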

How the data were processed

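H4K8ac was measured by ChIP-seq in 6 libraries, 3 per age, and 6 input libraries are not analysed here. In the submitters' processing notes, Trim Galore, Bowtie2 2.4.5, SAMtools, deepTools, MACS2, DiffBind and ChIPseeker are named beside the build GRCm38, with no role or order stated. Each deposited peak list covers 1 library, without pooling, and whether input served as its control is not given in the sources used here. Per the file headers, a peak carries the authors' fold enrichment, their −log10 p-value and q-value, a score that by its values follows the q-value, a class of position and the gene of the nearest transcription start. The score was read only to identify its scale. The authors' deposited table lists sites, each with the log2 fold change between ages and p-values before and after adjustment, and how reads were normalised for it is not given in the sources used here. It holds no values per library.

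From these files, bases under the peaks of each gene were summed per library, and a gene was counted as higher in an age when all 3 libraries of that age exceeded all 3 of the other. Exact two-sided permutation tests used log2(bases + 100), with Benjamini-Hochberg adjustment over 23433 genes. Regions were peaks of the 6 lists merged where they overlapped by at least 1 bp. Each site was given the gene name of whichever peak overlapped it most. Gene positions and promoter windows came from RefSeq (GRCm38.p6). The computations used Python 3.11.15, numpy 2.4.6, pandas 2.3.3, scipy 1.17.1 and matplotlib 3.10.9, and were tested on simulated data. Read depth is unknown, so no counting intervals are given, and the number of peaks per list limits what each library can show. Labels call the libraries biological replicates without saying whether animals were pooled. The permutation p-values therefore compare these libraries and do not speak for single animals.

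The members and lists were chosen with earlier results of these data known. Genes were named by rule: a list of channel genes known from glia or axons, members with promoter peaks at 1 age only, members with a site below 0, those with the 10 largest and 5 smallest positive site values, those with the most peaks, in all or per 100 kb, and all names without a peak. A few others (Kcna7, Kcnc2, Kcnc4, Kcnd1, Kcne4, Kcnj1 and Kcnn1) were named after their values were seen. Some genes that the rule names are not reported here, although they remain in the counts. Alternatives were equal numbers of strongest peaks, a q-value under 0.005, assignment by position, other promoter distances and overlaps, a replicate block and leaving out each library.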

Additional observations from a re-analysis of the deposited data

How the results depend on the processing

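The number of peaks per list was the setting that changed most. With the 7353 strongest peaks of each list, members higher in every adult library numbered 6 in place of 30, and those higher in every neonatal library 9 in place of 1. Adult-only promoter peaks were at 4 members in place of 7, adult-only regions outside promoters numbered 1 in place of 31, and members whose ages did not overlap 15 in place of 31. In the full lists the adult minus neonatal difference was 20.7 members with a promoter peak (6801 over all genes). For the intronic share it was 10.1 percentage points (25.6 over all peaks). With the strongest peaks the differences of members turned to -7.33 genes and -0.813 points. Fewer peaks enter by construction, and which of the full or equal lists is nearer to the cells was not tested. Adult-only regions outside promoters numbered 18 where peaks had to cover over 50% of a region. Of the sites higher in adult in the authors' deposited table, 72 of 110 had an adjusted p under 0.005, and 170 sites lay over a member's gene or the 5 kb on either side. The distal share differed by 14.6 percentage points between ages and by 4.13 without Kcna.

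Leaving out 1 library at a time gave 30 to 43 members higher in every adult library (43 without neonatal replicate 2) and 1 to 2 in every neonatal library. Adult-only promoters ranged from 7 to 22 (22 without neonatal replicate 2), adult-only regions from 31 to 48 (48 without adult replicate 1), and non-overlapping members from 32 to 44. The differences ranged from 13 to 33 promoter genes, 6.86 to 13.1 points of intronic and 11.3 to 17.9 points of distal peaks. Among equal lists the counts ranged from 6 to 8 in the adult and 9 to 13 in the neonatal direction (13 without neonatal replicate 1). A q-value under 0.005, a promoter distance of 1 kb and assignment by position kept each count they were run on within 1.5 times, the sites by position excepted. Among 112 alternatives for the log2 difference in bases of 16 single genes, no gene whose ages were apart changed sign. Of the genes that overlap, Kcnk2 went from -0.70 to 0.54 without adult replicate 2, Kcnk10 from -0.71 to 0.11 without neonatal replicate 2, and Kcnd3 from -0.04 to 0.59 by position, 0.23 without neonatal replicate 2 and 0.11 without adult replicate 3. The labels do not say whether replicate numbers pair the libraries. Deviations of same-numbered libraries from their age means had correlations of -0.0586, 0.0149 and 0.0812. Those of differently numbered libraries ranged from -0.104 to 0.093. With 3 libraries per age such values cannot decide whether the libraries are paired. With the replicate block, 33 members were higher in the adult library of all 3 pairs and 1 in the neonatal one.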

Other observations

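Among the other genes of potassium handling, Hcn2, a cyclic-nucleotide-gated channel that carries sodium and potassium, had 0.217, 0.460 and 0 kb under peaks in neonatal and 6, 8.52 and 9.25 kb in adult libraries, with 5 sites of log2 up to 6.06 in the authors' deposited table. Hcn3 overlapped between ages, and Hcn4 had a peak of 1.33 kb in neonatal replicate 2 only. Slc12a3 had no neonatal peak and 2.88, 3.13 and 3.93 kb in adult libraries, whereas Slc12a5, the neuronal chloride exporter, had at most 0.155 kb in any library. Atp1b2, the glial pump beta subunit, had a promoter peak in all 6 libraries and 0.890, 1.36 and 0.689 kb against 1.85, 1.53 and 1.44 kb. Atp1b1, its neuronal counterpart, overlapped, with 0.639, 1.37 and 0 kb against 0.643, 0.143 and 0.154 kb.

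Over the gene of Kcnq1, to which no peak was assigned by name, peaks named for other genes covered 0, 1.82 and 0.253 kb in neonatal and 8.68, 8.37 and 13.1 kb in adult libraries. Sites higher in adult that lay over or within 5 kb of a member but carried the name of another gene numbered 89.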
